A study of Mus musculus with 8 samples.

Results

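The proteasome genes of sorted intestinal stem cells were examined on 8 expression arrays, with the interferon-inducible subunits set against all other subunits. Members were the named probes whose gene symbol begins with Psma, Psmb, Psmc, Psmd or Psme and a digit. The rule matched 45 genes with 56 probes, and 43 of them had a probe well above background on at least 4 arrays, out of 25404 features so kept on the array. Of the 43, 40 were proteasome subunits or assembly factors with a probe of their own, and 1 was Psme2b, a copy of Psme2. Psmc3ip, a meiotic recombination factor, and Psme3ip1 are named for binding a subunit and were not counted as subunits. No probe carried an accession of Psme2 itself, so 4 of the 5 inducible subunits (Psmb8, Psmb9, Psmb10 and Psme1) were measured under their own name, beside 36 other subunits.

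The samples were Lgr5-high intestinal stem cells of mice, 4 labelled Irf2_AhcKO, which carried Irf2fl/fl with AhCre and the Lgr5-EGFP-Ires-CreERT2 allele, and 4 labelled control, which carried Irf2fl/fl and the Lgr5-EGFP-Ires-CreERT2 allele without AhCre. The Lgr5 allele, shared by both groups, itself encodes a tamoxifen-activated Cre. Both groups had received β-naphthoflavone for 5 consecutive days, 1 month before the cells were taken. Ah-Cre is driven by a promoter that β-naphthoflavone switches on in intestinal epithelium and in some other tissues. IRF2 recognises the promoter elements of interferon-driven genes and is known mostly as a brake on them, and the comparison asks which transcripts differ once it is lost. The labels give no age. The scanner output of control replicates 3 and 4 has AhCre in its name, so whether those mice carried the recombinase is not settled.

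Replicates 1 and 2 of each group were on slide 1, the others on slide 2. All values are log2 signals minus the array's own 75th percentile, and differences are Irf2_AhcKO minus control with the slide as a term in limma. The share of spots well above background was 61.4% to 69.8% per array, with none saturated. The single Irf2 probe lay between 0.70 and 1.12 in Irf2_AhcKO, against 0.37 to 0.99 in control (log2 difference 0.27, limma adjusted p = 0.429). Irf2_AhcKO arrays thus did not read lower at this probe. Whether the probe lies within the deleted exons is unknown here, so it does not check the labels, and every direction below is between arrays as labelled. The epithelial markers, 7 of 7, and the stem cell markers, 6 of the 7 listed, Lgr5 among them, were well above background on all 8 arrays. Of these, 2 of 7 epithelial and 1 of 6 stem cell markers were higher in Irf2_AhcKO, against 49.5% of all features. The median log2 differences were -0.08 and -0.13, and Lgr5 had -0.29. At an unadjusted limma p below 0.05 only Krt19 (-0.43) was lower and none was higher, against 5.75% and 5.98% of all features.

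The proteasome is the main protein-degrading machine of the cytosol and nucleus. Its 20S core is a stack of alpha and beta rings, in which the beta subunits encoded by Psmb5, Psmb6 and Psmb7 do the cutting, and the 19S cap recognises ubiquitin-tagged proteins, unfolds them and feeds them in. Interferons, above all interferon gamma, induce Psmb8, Psmb9 and Psmb10, which replace the constitutive cutting subunits in newly built particles and yield the immunoproteasome, whose peptides favour binding to MHC class I. Psme1 and Psme2 encode PA28 alpha and beta, an inducible ring that caps the core in place of the 19S particle.

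The promoters of the 4 measured inducible subunits are shown because IRF2 and other interferon-driven factors act through short elements in such regions. Each is the RefSeq window on GRCm38.p6 from 250 bases before to 50 bases after an annotated start, written 5′ to 3′ on the gene's strand, and all 5 named inducible genes had such a window. Capitals mark matches on either strand to the IRF element (GAAA, any 2 bases, GAAA) or to the interferon gamma activated site (GAS), TTCNNNGAA. Psmb8 (chr17:34197945-34198244, plus strand) had a GAS match that begins 97 bases before the start. Psme1 (chr14:55578244-55578543, plus strand) had an IRF element match, on the opposite strand, that begins at base 10 of the transcript. The windows of Psmb9 (chr17:34187281-34187580, minus strand) and Psmb10 (chr8:105938343-105938642, minus strand) held neither run of letters, and the Psmb9 window runs into the start of its neighbour Tap1.
Psmb8: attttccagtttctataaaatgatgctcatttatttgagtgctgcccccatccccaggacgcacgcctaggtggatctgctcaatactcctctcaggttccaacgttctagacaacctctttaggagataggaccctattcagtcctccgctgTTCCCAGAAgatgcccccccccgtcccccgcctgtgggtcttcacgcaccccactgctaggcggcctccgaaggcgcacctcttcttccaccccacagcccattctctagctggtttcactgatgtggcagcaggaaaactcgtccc
Psme1: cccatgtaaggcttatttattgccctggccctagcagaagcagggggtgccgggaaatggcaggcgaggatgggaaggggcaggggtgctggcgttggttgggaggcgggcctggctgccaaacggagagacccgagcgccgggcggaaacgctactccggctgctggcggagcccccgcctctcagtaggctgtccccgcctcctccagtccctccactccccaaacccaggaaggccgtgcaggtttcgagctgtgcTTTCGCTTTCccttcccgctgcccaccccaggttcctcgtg
Psmb9: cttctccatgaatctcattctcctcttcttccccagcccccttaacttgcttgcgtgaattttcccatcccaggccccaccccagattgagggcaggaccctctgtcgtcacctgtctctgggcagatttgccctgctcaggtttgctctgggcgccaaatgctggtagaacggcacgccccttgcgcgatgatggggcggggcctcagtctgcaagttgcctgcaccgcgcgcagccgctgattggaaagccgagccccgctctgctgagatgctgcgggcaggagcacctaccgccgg
Psmb10: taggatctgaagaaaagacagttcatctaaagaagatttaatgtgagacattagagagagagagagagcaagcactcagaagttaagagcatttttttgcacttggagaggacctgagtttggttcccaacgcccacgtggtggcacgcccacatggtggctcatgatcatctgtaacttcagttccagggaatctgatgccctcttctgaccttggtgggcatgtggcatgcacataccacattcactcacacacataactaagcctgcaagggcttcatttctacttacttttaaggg

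An IRF element match was present in 3.44% of all 32851 promoter windows and a GAS match in 8.3%. Of the 5 inducible genes, 1 had an IRF element match (Psme1) and 1 a GAS match (Psmb8). Of the 31 other subunit genes with a window, Psmb11 included, 3 had an IRF element match (Psmb3, Psmd4 and Psmd9) and 1 a GAS match (Psmd2). The antioxidant response core TGANNNNGC, bound by the NRF factors that raise constitutive proteasome genes, was present in 18 of those 31, in 3 of the 5 inducible genes and in 41.3% of all windows. No match overlapped another in the windows shown. A match is a run of letters in this window and says nothing about binding.

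All 4 measured inducible subunits were higher in Irf2_AhcKO, by log2 differences between 0.18 and 1.76 with a median of 0.72, while the 36 other subunits had a median of 0.002 and all features one of -0.002. The groups did not overlap, with Irf2_AhcKO higher, for 2 of the 4 inducible subunits (Psmb8 and Psmb9) and 2 of the 36 others, against 1.74% of all features in that direction and 3.85% in either. A log2 difference above 0.5 in size was found for Psmb8 and Psmb9 and for 1 of the 36 others, against 7.21% of all features. None of the 40 subunits passed an adjusted limma p of 0.05 over all features, a threshold that 0.0984% of the features passed, 0.0551% higher and 0.0433% lower. At an unadjusted limma p below 0.05, 3 of the 4 inducible and 2 of the 36 other subunits were higher and none was lower, against 5.98% of all features higher, 5.75% lower and 11.7% in either direction. On both slides all 4 inducible subunits were higher, as a median by 0.93 on slide 1 and 0.50 on slide 2.

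Psmb8 encodes the inducible chymotrypsin-like subunit (LMP7). It stood at 4.01, 4.29, 3.03 and 3.93 in Irf2_AhcKO replicates 1 to 4, against 1.79, 2.03, 1.61 and 2.78 in control replicates 1 to 4. The lowest Irf2_AhcKO array, replicate 3, lay above the highest control, replicate 4, and both of these arrays are on slide 2. The log2 difference was 1.76 (SE 0.34, 95% interval 0.95 to 2.57), which is 3.39-fold, with an unadjusted p of 0.00126 and a limma adjusted p of 0.162. It was 2.24 on slide 1 and 1.29 on slide 2, and the test of that gap in limma gave an unadjusted p of 0.179. With normexp background correction the difference was 1.65 and passed (limma adjusted p = 0.0409).

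Psmb9 encodes the inducible subunit LMP2, which takes the place of the caspase-like subunit. It stood at 5.00, 5.32, 3.97 and 4.58 in Irf2_AhcKO replicates 1 to 4, against 3.73, 3.95, 3.22 and 3.95 in the controls. The groups met closely, since Irf2_AhcKO replicate 3 was barely above control replicates 2 and 4, yet did not overlap, and on each slide both Irf2_AhcKO arrays were above both controls. The log2 difference was 1.00 (SE 0.23, 95% interval 0.45 to 1.55), 2.00-fold, with a limma adjusted p of 0.229. It was 1.32 on slide 1 and 0.69 on slide 2.

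Psmb10 encodes the inducible trypsin-like subunit (MECL-1). It stood at 3.96, 4.08, 3.38 and 3.85 in Irf2_AhcKO replicates 1 to 4, against 3.31, 3.63, 3.15 and 3.46 in the controls. Irf2_AhcKO replicate 3 lay below control replicates 2 and 4, so the groups overlapped. The log2 difference was 0.43 (SE 0.14, 95% interval 0.09 to 0.77), with an unadjusted p of 0.0205 and a limma adjusted p of 0.359. The 3 inducible cutting subunits thus stood in the order Psmb8, Psmb9, Psmb10 by size of difference, and the neighbouring intervals in that order overlap.

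Psme1, the alpha subunit of PA28, was read by 10 spots of 1 probe. It stood at 6.30, 6.40, 5.84 and 5.97 in Irf2_AhcKO replicates 1 to 4, against 6.15, 6.18, 5.66 and 5.82 in the controls. The slides differed more than the groups did: the slide 2 arrays were lower by 0.44 (limma adjusted p = 0.0052 for the slide), and within each slide both Irf2_AhcKO arrays lay above both controls. The group difference was 0.18 (SE 0.08, 95% interval -0.004 to 0.35, limma adjusted p = 0.432).

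Psme2b, listed by RefSeq on chromosome 11 and also named PA28b2 or Psme2-like, is a copy of the PA28 beta gene Psme2. Whether its probes were hit by transcripts of Psme2, of the copy or of both cannot be told apart. Its brightest probe stood at 5.71, 5.73, 5.33 and 5.46 in Irf2_AhcKO replicates 1 to 4, against 4.64, 4.94, 4.58 and 4.75 in the controls. Every Irf2_AhcKO array was above every control, and the SD within a group was 0.20 in Irf2_AhcKO and 0.15 in control. The log2 difference was 0.83 (SE 0.10, 95% interval 0.59 to 1.06), with a limma adjusted p of 0.0520. The other probes of the gene differed by 0.73 and 0.18, and the mean of all 3 by 0.58 (limma adjusted p = 0.140). With normexp the brightest probe passed (limma adjusted p = 0.0063), as it did among probes well above background on all 8 arrays (limma adjusted p = 0.0299). With Psme2b counted for Psme2, the median over 5 inducible genes was 0.83.

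**Figure D1:**
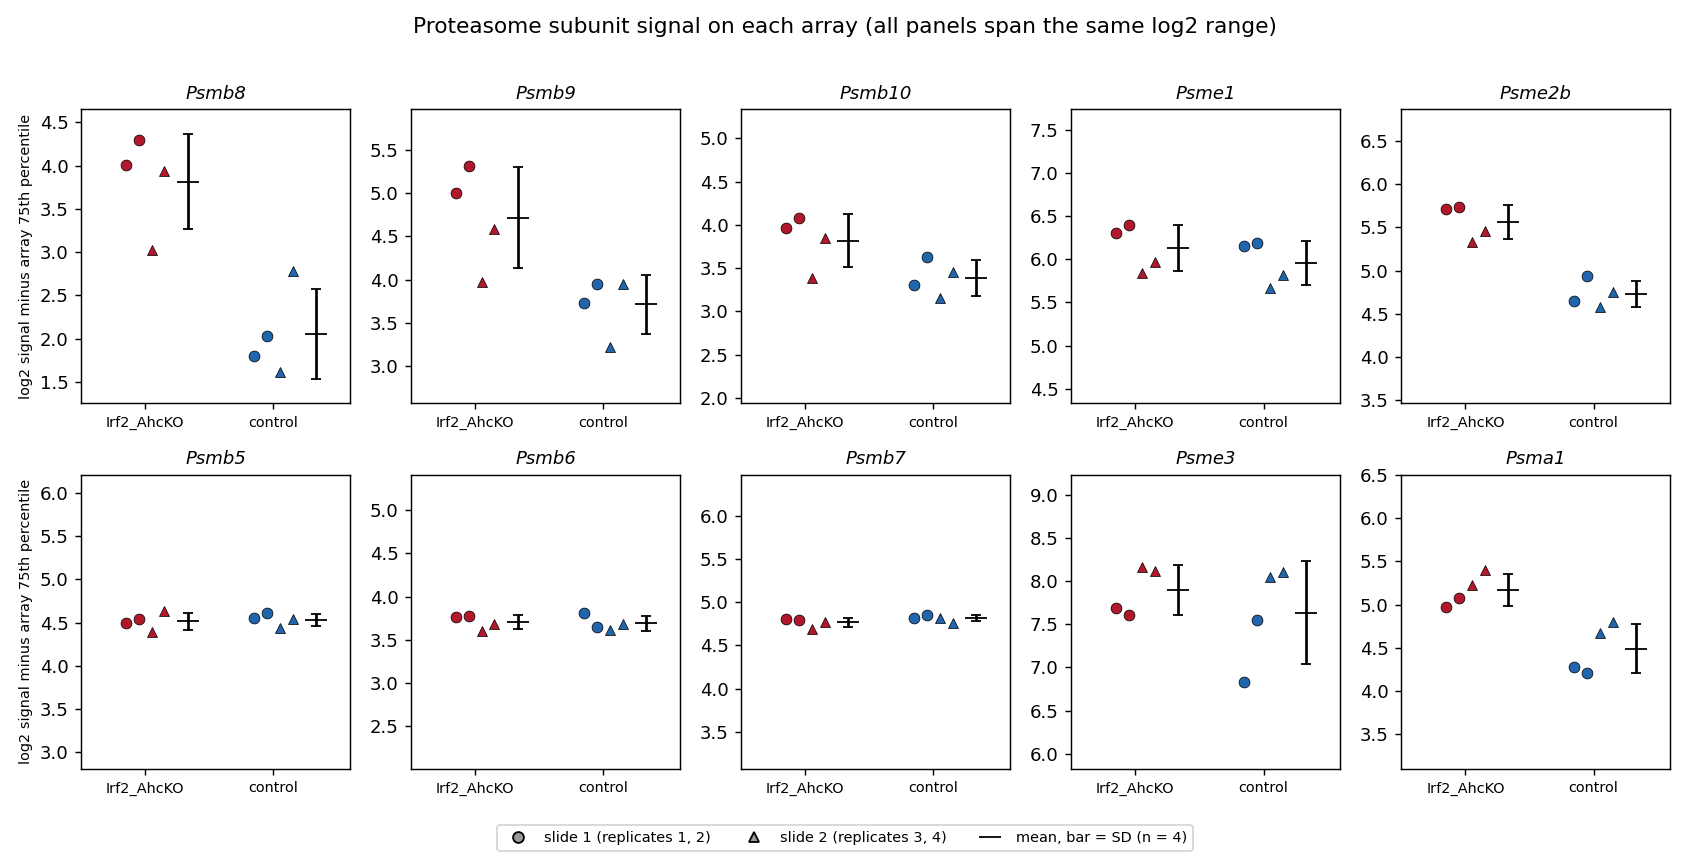
Log2 signal minus the array's 75th percentile on each array for the inducible subunits and the Psme2 copy (top) and for Psmb5, Psmb6, Psmb7, Psme3 and Psma1 (bottom), Irf2_AhcKO left of control; circles are slide 1, triangles slide 2, and the bar is the mean with its SD (n = 4). Psmb8, Psmb9, Psme2b and Psma1 have Irf2_AhcKO arrays that all lie above the controls, while Psmb5, Psmb6 and Psmb7 lie level.

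The constitutive cutting subunits did not show such a difference. Psmb5, whose chymotrypsin-like place Psmb8 takes, stood at 4.50, 4.54, 4.39 and 4.63 in Irf2_AhcKO replicates 1 to 4, against 4.55, 4.61, 4.44 and 4.54 in the controls. Its log2 difference was -0.02 with a 95% interval from -0.21 to 0.17, and the groups overlapped. The second probe of Psmb5 differed by -0.11. Psmb6, the caspase-like subunit, stood at 3.77, 3.77, 3.61 and 3.68 in Irf2_AhcKO replicates 1 to 4, against 3.81, 3.65, 3.61 and 3.69 in the controls (difference 0.02, interval -0.16 to 0.19). Psmb7, the trypsin-like subunit, stood at 4.81, 4.79, 4.69 and 4.77 in Irf2_AhcKO replicates 1 to 4, against 4.82, 4.85, 4.82 and 4.76 in the controls (difference -0.05, interval -0.20 to 0.11). These intervals leave room for a shift of about 0.2 in either direction on the log2 scale, far below the Psmb8 difference. The signs for Psmb5 and Psmb6 flip under other scalings and array sets, as differences this near 0 do.

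Each inducible subunit was then set against the subunit it replaces, as a log2 ratio within an array. Ratios of different probes have no meaning as levels, and only their difference between groups is used. For Psmb8 over Psmb5 the ratio was -0.49, -0.25, -1.36 and -0.70 in Irf2_AhcKO replicates 1 to 4, against -2.76, -2.58, -2.83 and -1.75 in the controls, a change of 1.78. For Psmb9 over Psmb6 it was 1.23, 1.54, 0.36 and 0.90 in Irf2_AhcKO replicates 1 to 4, against -0.08, 0.30, -0.39 and 0.27 in the controls, a change of 0.99. In both pairs every Irf2_AhcKO array lay above every control. For Psmb10 over Psmb7 it was -0.85, -0.72, -1.31 and -0.92 in Irf2_AhcKO replicates 1 to 4, against -1.51, -1.22, -1.67 and -1.31 in the controls, a change of 0.48, with Irf2_AhcKO replicate 3 below control replicate 2 and just below control replicate 4. A two-sided exact permutation test within slides gave p = 0.0556 for the first and the second pair and p = 0.111 for the third. The smallest p this design allows is 0.0556, so no pair could pass 0.05, and adjusted over the 3 pairs the exact permutation p-values were 0.0833, 0.0833 and 0.111.

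**Figure D2:**
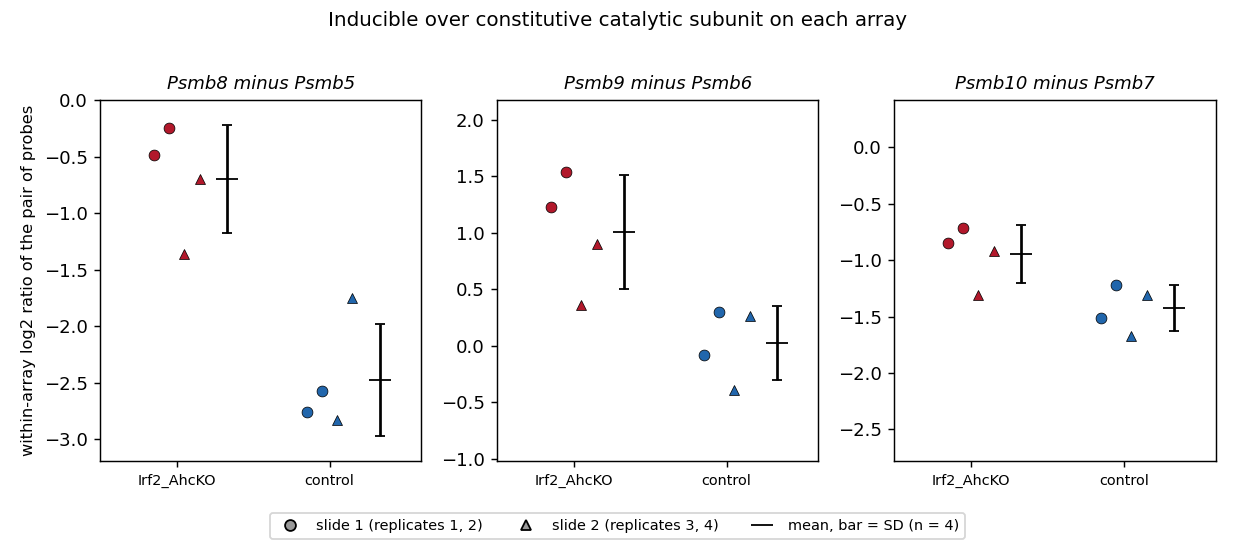
Within-array log2 ratio of each inducible cutting subunit over the constitutive subunit it replaces, for Irf2_AhcKO (left) and control (right) arrays; circles are slide 1, triangles slide 2, and the bar is the mean with its SD (n = 4). Every panel spans the same log2 range, and the changes are 1.78, 0.99 and 0.48 from left to right.

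Among the alpha subunits, which form the outer rings and the gate of the 20S core, Psma1 stood apart from the other 6 measured. It stood at 4.97, 5.08, 5.22 and 5.40 in Irf2_AhcKO replicates 1 to 4, against 4.28, 4.22, 4.67 and 4.80 in the controls. The groups did not overlap, and within each slide the gap was wider than within the pooled arrays because slide 2 ran higher by 0.39. The log2 difference was 0.68 (SE 0.09, 95% interval 0.47 to 0.88), at 0.78 on slide 1 and 0.57 on slide 2, with a limma adjusted p of 0.0688. It passed with normexp (limma adjusted p = 0.0058) and among probes well above background on all 8 arrays (limma adjusted p = 0.0412). Psma1 was read by 1 probe, so no other probe of the gene was at hand to compare.

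Psma4 stood at 2.23, 2.18, 2.12 and 2.31 in Irf2_AhcKO replicates 1 to 4, against 1.79, 1.99, 2.06 and 2.11 in the controls. The groups just failed to overlap, and the brightest probe differed by 0.22 (SE 0.09, limma adjusted p = 0.411), its second probe by 0.07. The remaining alpha subunits ran from -0.01 (Psma5) to 0.18 (Psma2), with intervals that all include 0. Psma8, which replaces Psma7 in male germ cells, was not well above background on any array.

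The 7 constitutive beta subunits, cutting and structural, had differences from -0.09 (Psmb1) to 0.02 (Psmb6). None had an unadjusted limma p below 0.05, against 11.7% of all features. Psmb11, the beta subunit of the thymic cortex, was not well above background on any array. With Psma8 it makes up the 2 matched genes that were left out, and all 43 kept genes were well above background on all 8 arrays, so no member lay near the threshold. The lowest kept mean was that of Psmc3ip (-1.19 in Irf2_AhcKO and -1.25 in control), while Psma8 averaged -6.39 and -5.74 in that order and Psmb11 -6.39 and -6.36.

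The 6 ATPases of the 19S base, the ring that unfolds substrates, had differences between -0.13 (Psmc4) and 0.06 (Psmc3). The 11 other 19S subunits, among them the ubiquitin receptor Psmd4 and the deubiquitinase Psmd14, had differences between -0.17 (Psmd8) and 0.13 (Psmd12, whose second probe had -0.01). None of these 17 genes had an unadjusted limma p below 0.05, against 11.7% of all features. None had groups that did not overlap, against 3.85% of all features. Psmd4 averaged 5.80 ± 0.15 in Irf2_AhcKO and 5.76 ± 0.22 in control (SD, n = 4 each), and Psmd14 averaged 0.74 ± 0.29 in Irf2_AhcKO and 0.72 ± 0.29 in control.

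All 3 factors that help to assemble the 19S base had negative differences, -0.23 for Psmd10 (gankyrin), -0.22 for Psmd9 and -0.18 for Psmd5. Psmd10 stood at 0.41, 0.27, 0.77 and 0.60 in Irf2_AhcKO replicates 1 to 4, against 0.86, 0.66, 0.81 and 0.66 in the controls. Its arrays were lower in Irf2_AhcKO on slide 1 (-0.42) and nearly level on slide 2 (-0.05), the groups overlapped, and the limma adjusted p was 0.460. The second probe of Psmd10 had a difference of -0.02 and that of Psmd9 one of -0.08.

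Of the activators outside the interferon-inducible pair, Psme3 encodes nuclear PA28 gamma and Psme4 the PA200 cap. Psme3 stood at 7.69, 7.61, 8.16 and 8.12 in Irf2_AhcKO replicates 1 to 4, against 6.83, 7.55, 8.05 and 8.11 in the controls. Slide 2 ran higher by 0.69 (limma adjusted p = 0.018 for the slide). Control replicate 1 lay far below the rest, and without it the difference of 0.26 shrank to 0.08 (limma adjusted p = 0.557 with all arrays). Psme4 had a difference of 0.01, at 0.23 on slide 1 and -0.21 on slide 2.

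**Figure D3:**
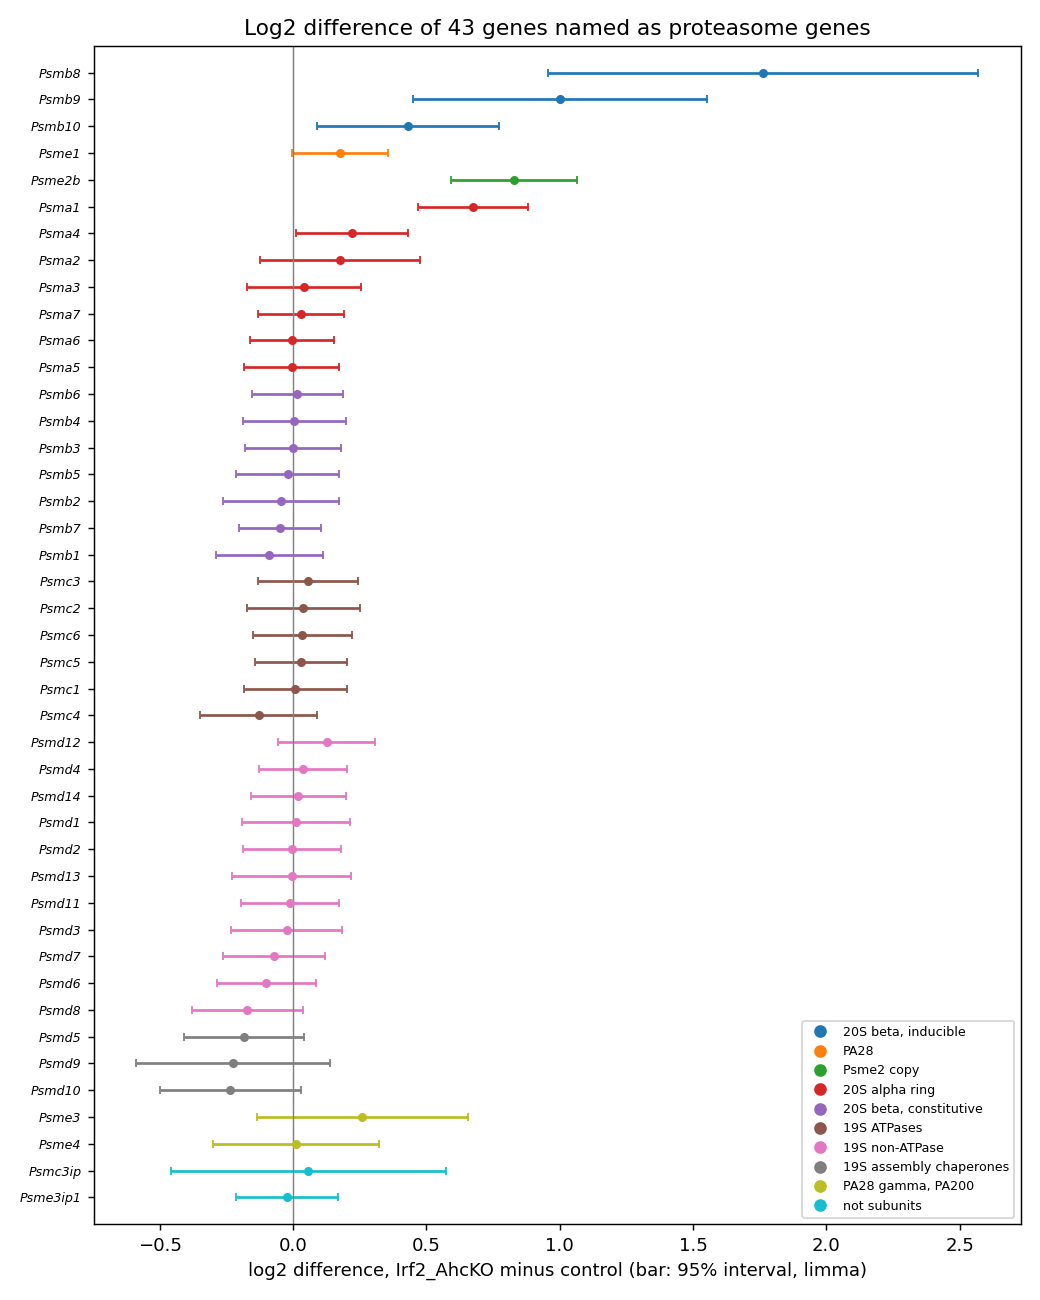
Log2 difference, Irf2_AhcKO minus control, with its 95% interval from limma, for the 43 kept genes by group. Psmb8, Psmb9, Psmb10, Psme2b, Psma1 and Psma4 have intervals above 0, and all other intervals include 0.

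The limma intervals rest on the spread between these arrays, which may be technical only. For 32 of the 36 the 95% interval lay within 0.5 of 0 on the log2 scale, as it did for 56.9% of all features, and the 4 that did not were Psma1, Psme3, Psmd9 and Psmd10. Without Psma1, the remaining 35 differences lay between -0.23 and 0.26. Positive differences were found in 18 of the 36 against 49.5% of all features, a split that was 26 of 36 with quantile normalization, 25 with the percentile taken over probes well above background on all arrays and 14 with normexp. On the 2 slides 16 of the 36 had the same sign, against 62.2% of all features, and all 4 inducible subunits had it.

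**Figure D4:**
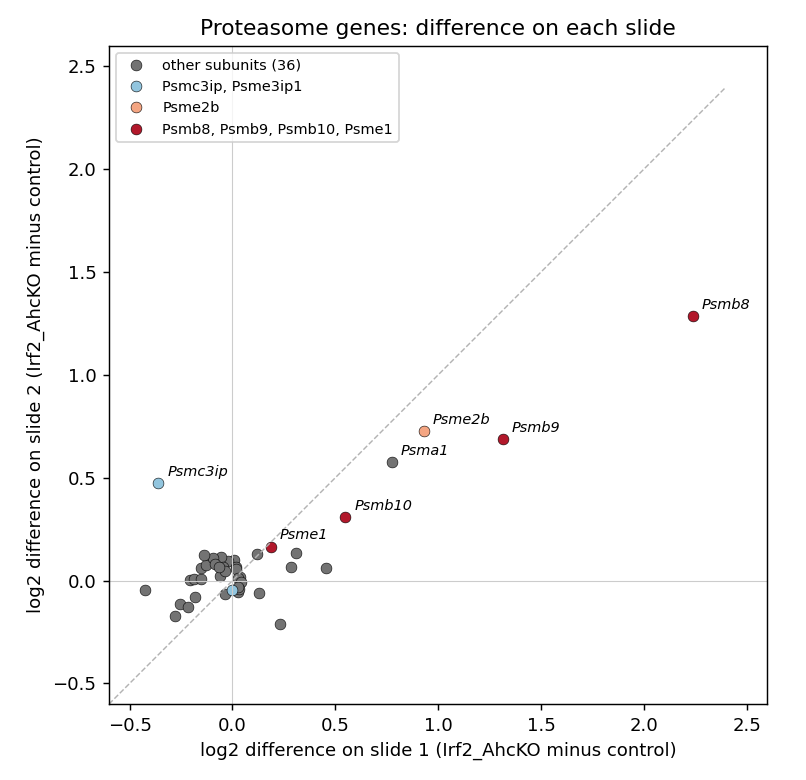
Log2 difference of each kept proteasome gene on slide 1 (horizontal) and on slide 2 (vertical), Irf2_AhcKO minus control, each from 2 arrays per group; the dashed line marks equal values. Psmb8, Psmb9, Psmb10, Psme1, Psme2b and Psma1 are positive on both slides and lie below the line, and the other subunits gather around 0.

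Subunits also differed between slides whatever the group, 12 of 40 at a limma adjusted p below 0.05, against 35.5% of all features. Psme3 had the largest such difference, higher on slide 2 by 0.69. Psmb1, Psmd14 and Psmb3 were higher on slide 2 by 0.50, 0.48 and 0.48, and Psmd3 and Psmc1 lower by log2 values of -0.47 and -0.45. Among the inducible subunits only Psme1 differed between slides by this test.

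Psmb9 and Psmb8 flank Tap1, with Tap2 next to Psmb8, on mouse chromosome 17 within the MHC. Tap1 and Tap2 encode the transporter that carries proteasome products into the endoplasmic reticulum. Tap1 differed by 0.74 on the log2 scale (95% interval 0.09 to 1.38, limma adjusted p = 0.380). Its signal was low, at a mean of -3.06 in Irf2_AhcKO and -3.79 in control. Tap2 differed by -0.33 (95% interval -1.03 to 0.38, limma adjusted p = 0.665), so its sign is not settled. Psme1 and Psme2 lie near each other on chromosome 14, and Psmb10 is on chromosome 8.

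Of 18 listed assembly and associated factors 17 were measured, and none passed over all features. The share passing among all features was 0.0984%, so lists of this size would rarely hold a passing gene. The core assembly chaperone gene Psmg4 had a difference of -0.23 (limma adjusted p = 0.344). Its groups did not overlap, as for 3.85% of all features. Akirin2, which guides proteasomes into the nucleus, had -0.34, and Zfand5 had 0.15. Pomp, the maturation factor on which new cores are built, had 0.04. None of 8 shuttle and delivery factors passed, with Ddi2, the protease that activates NRF1, at -0.22, Ubqln4 at -0.17 and Ubqln1 at 0.21. None of the 11 measured peptidases, of 12 listed, passed. Erap1, which trims peptides in the endoplasmic reticulum, had 0.43 (SE 0.13, limma adjusted p = 0.319), Thop1 had -0.33 and Dpp9 -0.29.

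Of the regulators of proteasome genes none passed over all features, against 0.0984% of all features. Stat3, a cytokine-activated transcription factor, had a difference of 0.49 (SE 0.09, limma adjusted p = 0.146). Its groups did not overlap, as for 3.85% of all features. Nfe2l2, the NRF2 gene, had -0.44 (limma adjusted p = 0.358). Nfe2l1, which encodes NRF1, the factor that restores proteasome genes when activity drops, had -0.36 (limma adjusted p = 0.510). Irf1 and Nlrc5, activators of Psmb9 and of MHC class I genes, had 0.15 and 0.27.

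Blood-derived cells carry much immunoproteasome, so leukocyte markers are given beside these values. Of 20 listed, 13 were measured, 9 with a positive difference, and Cd3g, Cd53, Coro1a and Laptm5 were well above background on no array. Their summed signal on the log2 scale lay between 3.97 and 4.46 in Irf2_AhcKO, against 3.30 to 3.83 in control, and without Cd74, which interferon gamma induces in epithelium, between 3.24 and 3.49 in Irf2_AhcKO, against 2.78 to 3.25 in control. At an unadjusted limma p below 0.05, 4 of the 13 were higher and none lower, against 5.98% of all features higher and 5.75% lower. These were Cd74 (1.03), Fcer1g (0.53), Nkg7 (0.40) and Cd79b (1.33), a B cell gene well above background on 4 Irf2_AhcKO and 2 control arrays. Ptprc, the pan-leukocyte CD45 gene, had a difference of 0.04 with a 95% interval from -0.17 to 0.26, and Cd3e one of 0.15. Negative differences were found for 4 of the 13, among them Tyrobp (-0.44), Gzmb (-0.25) and Lyz2 (-0.15). The part of such cells in the inducible subunits' values was not tested, and in bulk RNA more cells of a type and more RNA per cell cannot be told apart.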

How the data were processed

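Total RNA of 8 samples was amplified from 20 ng (Ovation Pico WTA) and carried Cy3, per the labels' protocols. The deposited intensity of each spot, background-subtracted and detrended, came from Agilent Feature Extraction 11.5.1.1, per the submitters' processing notes. The authors' series table holds the same intensity times 1 constant per array (6.41 to 6.90), linear and not centred. No source used here says how the constant was set. Column medians were 207 to 246.

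Here log2 of the processed intensity minus each array's 75th percentile was used. Replicate spots were averaged after removing outlier spots. Probes well above background on 4 or more arrays were kept, and the brightest stood for its gene. Symbols came from accessions through RefSeq (GRCm38.p6), for 28331 of 55681 probes, none with several genes. The array grid is annotated on mm9, so no probe was placed in the genome. limma 3.58.1 (R 4.3.3) was fitted to all 25404 features with the slide as a term, two-sided, with Benjamini-Hochberg adjustment, and checked on simulated data. The design text speaks of 4 mice and of 2 biological replicates, so the p-values and intervals may cover technical spread only. Precision is limited by the number of arrays.

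The members and lists were chosen with earlier results of these data known. Arrays are given in full for Psmb8, Psmb9, Psmb10, Psme1, Psmb5, Psmb6, Psmb7, Psme3 and the 3 other subunits of smallest p, with extremes of each group and up to 3 genes per pathway list. 1 listed regulator is not reported here. Psme2b, Tap1, Tap2, Pomp, Nfe2l1, Irf1, Nlrc5, Psmd4, Psmd14 and the markers named were chosen after their values were seen. Slide and scan coincided. Same-numbered arrays deviated together (r across features 0.46 to 0.53), but they also share a slide, so this does not show that they are pairs. They were taken as pairs only in the alternative with a replicate block. With slide means removed r was 0.05 and 0.21.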

Additional observations from a re-analysis of the deposited data

Results flagged for a closer look

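Of 80 sets of 4 arrays (40 subunits in each group), 1 had an array far from the other 3. Psma2 stood at 3.86 in control replicate 1, while the other controls lay between 4.39 and 4.45. Chance flags about 1 set in 20.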

How the results depend on the processing

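Across 21 alternatives the 4 inducible subunits were positive wherever they were computed. Psmb8 lay between 1.29 and 2.24, Psmb9 between 0.69 and 1.32, Psmb10 between 0.31 and 0.55 and Psme1 between 0.15 and 0.23. Several alternatives could not move these differences. They were the authors' values, the changed filters on dim probes, the mean over probes, the fit without a slide term and the replicate block. Psmb8 passed with normexp alone (1.65, limma adjusted p = 0.0409), and its adjusted p otherwise lay between 0.0821 and 0.968. The scanner files used have no mean spot signal, so normexp took the median. The number of features passing was 25, against 133 with normexp, 7 with no filter on dim probes, 46 among probes well above background on all 8 arrays, and 0 with the replicate block (3293 at an unadjusted limma p below 0.05) and within slide 1 (2539) or slide 2 (1337). Leaving out 1 array gave 0 to 25 passing features: 0 without control replicate 2, Irf2_AhcKO replicate 1 or Irf2_AhcKO replicate 2 (2484, 2419 and 2249 at an unadjusted limma p below 0.05), 1 without Irf2_AhcKO replicate 3, 3 without Irf2_AhcKO replicate 4, 6 without control replicate 3, 11 without control replicate 1 and 25 without control replicate 4. None of the 40 subunits passed in the main fit and no feature passed with the replicate block, so that block changed no subunit's call. The exact permutation test within pairs gave p = 0.125 for all 3 ratios, the smallest it allows. Permuted over all 8 arrays, the changes of Psmb8 over Psmb5 (1.78) and of Psmb9 over Psmb6 (0.99) had an exact permutation p = 0.0286, the smallest that test allows. The change of Psmb10 over Psmb7 (0.48) had an exact permutation p = 0.0857. These p-values leave the slide out and are not adjusted over the pairs. Psmb5 turned to 0.013 with quantile normalization, 0.0014 with the percentile over probes well above background on all arrays and 0.0203 within slide 2, and ran from -0.076 to 0.0199 when 1 array was left out. Psmb6 turned to -0.0108 with normexp and -0.0081 within slide 2, and ran from -0.0211 to 0.0429 when 1 array was left out. The median of the 36 other subunits lay between -0.03 and 0.03. Psme3 was 0.06 within slide 2 and 0.46 within slide 1, and ran from 0.08 (without control replicate 1) to 0.36 when 1 array was left out. The cause was not tested for any of these. Psme2 gave no value, since no probe carries its accession.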
